A study of Homo sapiens with 12 samples.

Results

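The ERK feedback genes described here are DUSP4, DUSP5, DUSP6, SPRY1, SPRY2, SPRY4, SPRED1, SPRED2, ETV4 and ETV5. They were chosen by their role in the RAS-ERK pathway, with earlier results of these data known, and they were 10 of the 23064 gene symbols in the count tables. All 10 passed the filter on low counts in both cell lines, among 14673 genes tested in CAL-29 and 14335 in 5637. The study sequenced total RNA to ask how gene expression changes when KMT9α, the catalytic subunit of the lysine methyltransferase KMT9 and the product of N6AMT1, is depleted in muscle-invasive bladder cancer cells. Both lines, CAL-29 and 5637, derive from human bladder carcinoma and carry the genotype label wild type. Cells were transfected with a control siRNA (siCtrl) or an siRNA against KMT9α (siKMT9α) and harvested at day 3, with 3 libraries in each of the 4 groups. A single siRNA against KMT9α was sequenced, so the loss of its target and other effects of its sequence cannot be told apart. The methods also give the lines different culture media, transfection reagents and final siRNA concentrations. Line, medium, reagent and dose therefore cannot be told apart in any comparison of the lines. The labels do not say whether libraries of a group came from separate cultures, so the p-values measure the spread between these libraries, which may be technical.

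Growth factor receptors signal through RAS, RAF and MEK to the ERK kinases, which activate transcription of genes that then hold the pathway back. Dual-specificity phosphatases (DUSP) remove the activating phosphates from ERK, Sprouty (SPRY) and SPRED proteins interrupt the signal between the receptor and RAF, and the PEA3 factors ETV4 and ETV5 are ETS transcription factors that carry the transcriptional response. The transcripts of these genes are often read as a signature of ERK output in carcinomas with altered receptors or RAS, bladder carcinoma among them. Phosphorylated ERK was not measured in these libraries.

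Between 24479348.5 and 35151256.5 counts fell on the rows used per library, and the totals hold fractions because some deposited counts were not whole. N6AMT1, the target of the siRNA, lay between 9.68 and 11.4 CPM (counts scaled to the effective library size) in the CAL-29 siCtrl libraries and between 1.99 and 2.93 CPM in the siKMT9α libraries. In 5637 it lay between 13.2 and 13.4 CPM with siCtrl and between 2.22 and 3.75 CPM with siKMT9α. Of the 14 urothelial markers, KRT5, KRT8, KRT18, KRT19, CDH1 and EPCAM were abundant in both lines, while the uroplakin genes UPK1A and UPK3A held at most 29 and 20 counts in a CAL-29 library and at most 2 and 3 in a 5637 library. UPK2 in 5637 and KRT14 in CAL-29 were also low, at means of 0.645 and 0.893 CPM with siCtrl. The summed level of all 14 was 13460 to 14110 CPM in CAL-29 siCtrl against 6515 to 6664 CPM with siKMT9α, and 8749 to 9179 against 5976 to 6189 CPM in 5637. At an adjusted p below 0.05, 10 of 14 tested markers fell and 2 rose in CAL-29, and 12 of 12 fell in 5637, and the part of this shift in the results below was not tested. The 9 leukocyte, endothelial and fibroblast markers summed to 7.25 to 9.19 CPM in CAL-29 siCtrl against 15.1 to 17.1 CPM with siKMT9α, and to 5.43 to 6.57 against 5.76 to 6.33 CPM in 5637. At an adjusted p below 0.05, 2 of the 5 tested rose and 2 fell in CAL-29, and 1 of 4 rose and 1 fell in 5637. The same threshold called 34.3% of all genes tested higher and 35.2% lower in CAL-29, and 35.1% and 35.6% in 5637. The macrophage marker CD68 rose from a mean of 5.07 to 10.97 CPM in CAL-29 and from 2.73 to 4.32 CPM in 5637, and the endothelial CDH5 rose from 0.683 to 3.81 CPM in CAL-29 and fell from 1.18 to 0.0328 CPM in 5637. PTPRC, CD3E, PECAM1 and DCN were tested in neither line and held at most 7.5 counts in any library. The part of these markers in the results was not tested.

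Of the ERK feedback genes, 7 rose with siKMT9α in each line, and 4 of them rose in both. At an adjusted p below 0.05, 7 of the 10 rose in CAL-29 (DUSP4, DUSP6, SPRY1, SPRY2, SPRED1, ETV4 and ETV5), 1 fell (DUSP5) and 2 did not pass. In 5637, 7 rose (DUSP4, DUSP5, DUSP6, SPRY1, SPRY2, SPRY4 and SPRED2), none fell and 3 did not pass. Over all genes tested the same threshold called 34.3% higher and 35.2% lower in CAL-29, and 35.1% higher and 35.6% lower in 5637. At the stricter threshold that defined differentially expressed genes (DEGs) here, an unadjusted p below 1e-06, 4 of the 10 were DEGs in CAL-29 and 5 in 5637, and each of these was higher with siKMT9α. The DEGs over all genes made up 15% higher and 15% lower in CAL-29, and 18% higher and 17.6% lower in 5637. The median log2 fold change of the 10 genes was 0.47 in CAL-29 and 0.51 in 5637, beside medians of -0.02 and -0.01 over all genes tested. DUSP4, DUSP6, SPRY1 and SPRY2 rose in both lines at an adjusted p below 0.05, as did 22.6% of the 13674 genes tested in both. DUSP4 and DUSP6 were DEGs in both, against 8.45% of all genes. Bulk RNA cannot tell a change in every cell from a change in the share of cells that express a gene.

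**Figure D1:**
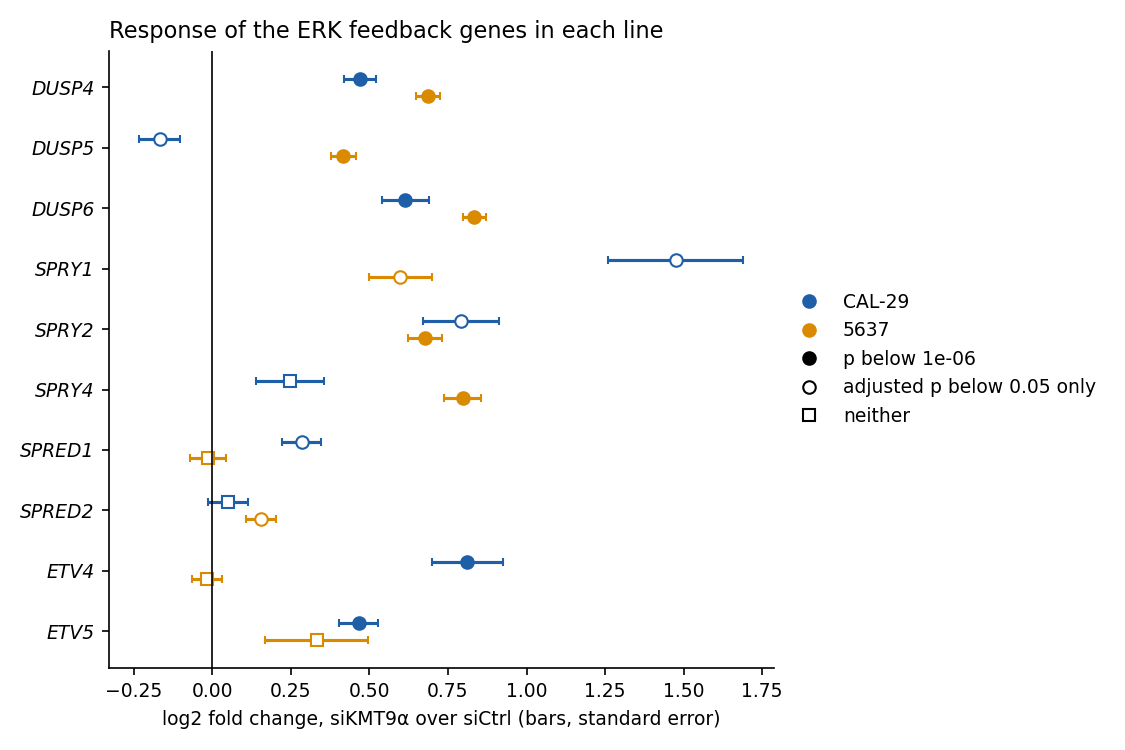
Log2 fold change of each ERK feedback gene, siKMT9α over siCtrl, in CAL-29 (blue) and 5637 (orange), with standard errors as bars and 3 libraries per group. Filled circles mark p below 1e-06, open circles an adjusted p below 0.05 only and squares neither. DUSP4, DUSP6, SPRY1 and SPRY2 lie to the right of 0 in both lines, DUSP5 lies on opposite sides, and SPRED1 and ETV4 are near 0 in 5637 alone.

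Leaving out any 1 of the 6 libraries of a line kept every one of the 7 higher calls at an adjusted p below 0.05 in CAL-29, and every one of the 7 in 5637. The DEG count in CAL-29 was less steady and ranged from 1 to 6 over the same 6 refits, while it was 5 in each refit of 5637. Over all genes the DEG count also moved, between 3119 and 5469 in CAL-29, where it was 4402 with all libraries. In 5637 it lay between 4288 and 4974 over all genes, against 5104 with all libraries. Among the ERK feedback genes in CAL-29 the DEG count was 6 without siCtrl replicate 1. It was 1 without siCtrl replicate 2 or without siKMT9α replicate 1, and 2 without siCtrl replicate 3 or siKMT9α replicate 2 or 3. By chi-square over degrees of freedom, CAL-29 siCtrl replicate 1 differed from replicates 2 and 3 by 8.19 and 12.3. No other pair of libraries in a group exceeded 3.99, and the part of this in the DEG count was not tested. Libraries with siKMT9α lay wholly above the siCtrl libraries for 7 of the 10 genes in CAL-29 and for 8 in 5637, and wholly below for none. Over all genes the groups did not overlap, in either direction, for 72.3% in CAL-29 and 72.4% in 5637. The number of members without overlap was thus near the share over all genes.

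DUSP6 encodes a cytoplasmic phosphatase that is selective for ERK. On GRCh37 the gene lies at chr12:89741012-89746278 on the minus strand with 3 exons. In CAL-29 it was read at 48.1, 41.4 and 38.02 CPM in the siCtrl libraries and at 71.1, 64.0 and 59.7 CPM in the siKMT9α libraries. All siKMT9α libraries were above all siCtrl libraries, and the log2 fold change was 0.61 ± 0.08 (SE; adjusted p = 3.41e-07). In 5637 the siCtrl libraries gave 88.7, 88.9 and 83.7 CPM, against 150.2, 156 and 159 CPM with siKMT9α. The gap between the groups was several times the spread within either of them, with a log2 fold change of 0.83 ± 0.04 (adjusted p = 6.70e-18), the highest of the 10 genes in that line. The DEG call in CAL-29 ended without siCtrl replicate 2, without siKMT9α replicate 1 and with transcript rows summed, with edgeR p-values of 3.99e-06, 1.77e-06 and 5.87e-06. An annotated gene on the other strand covers 24.1% of the exonic bases of DUSP6. The methods give HOMER with default settings for the counting, but whether the library kit marked strand is not given in the sources used here, so reads of the overlapping genes cannot be told apart.

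The promoter of DUSP6 is shown because the repressor capicua (CIC), which ERK phosphorylation relieves, binds octamers of the form TGAATGAA, TGAATGGA, TCAATGAA or TCAATGGA in genes of this class. The 300 bases run from 250 before to 50 after the start site in RefSeq on GRCh38.p14, at chr12:89352452-89352751 on the minus strand, and capitals mark both octamers found, which read TCAATGGA on the opposite strand.
DUSP6 promoter: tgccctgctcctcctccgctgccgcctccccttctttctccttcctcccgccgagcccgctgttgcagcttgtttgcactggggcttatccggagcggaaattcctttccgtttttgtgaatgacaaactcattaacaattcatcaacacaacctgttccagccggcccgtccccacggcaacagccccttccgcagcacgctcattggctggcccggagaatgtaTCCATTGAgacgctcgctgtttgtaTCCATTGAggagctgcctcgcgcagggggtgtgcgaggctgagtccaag
The octamers begin at positions -24 and 2 from the start site. Of 35116 promoter windows of this length, 3.77% held at least 1 such octamer on either strand and 0.327% held 2 or more. Windows were matched for 6 of the 10 genes (DUSP6, SPRY1, SPRY2, SPRY4, SPRED1 and SPRED2), 10 windows in all, and DUSP6 was the only one of the 6 with an octamer. The ETS word CCGGAAG, held by 10.3% of all windows, occurred once at position -67 of a SPRY1 window, and the AP-1 word TGANTCA, held by 7.71%, occurred at -6 and 35 of a SPRED2 window. The cyclic AMP response element TGACGTCA, held by 1.85%, was in none of the 10. These are matches of letters and not measured binding.

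DUSP4 encodes a nuclear phosphatase that acts on ERK and on the stress kinases. Its siCtrl libraries gave 86.1, 84.3 and 80.7 CPM in CAL-29, against 122, 114 and 111 CPM with siKMT9α. In 5637 the values were 82.8, 89.0 and 81.6 CPM with siCtrl and 137, 132 and 138 CPM with siKMT9α. The groups did not overlap in either line, and the log2 fold change was 0.47 ± 0.05 in CAL-29 (adjusted p = 5.11e-08) and 0.69 ± 0.04 in 5637 (adjusted p = 1.76e-15). DUSP4 was a DEG in both lines, and its siCtrl libraries overlapped between the lines when scaled together.

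DUSP5 encodes a nuclear phosphatase that both inactivates ERK and holds it in the nucleus, and it lies at chr10:112257665-112271291 on the plus strand of GRCh37 with 4 exons. It was the 1 member whose response had opposite signs past an adjusted p of 0.05 in both lines. In CAL-29 the siCtrl libraries gave 89.9, 99.3 and 105 CPM, against 95.5, 78.7 and 87.3 CPM with siKMT9α. These ranges overlapped, and DUSP5 fell by 0.17 ± 0.06 on the log2 scale (adjusted p = 0.0259). The call at an adjusted p below 0.05 ended without siCtrl replicate 2 or 3, without siKMT9α replicate 2 or 3, with scaling by total counts, with DESeq2 and with summed transcript rows, while the estimate stayed between -0.24 and -0.09. In 5637 the siCtrl libraries gave 62.3, 63.1 and 61.6 CPM, against 83.4, 85.0 and 81.2 CPM with siKMT9α, which did not overlap. The log2 fold change there was 0.42 ± 0.04 (adjusted p = 1.74e-10), a DEG.

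**Figure D2:**
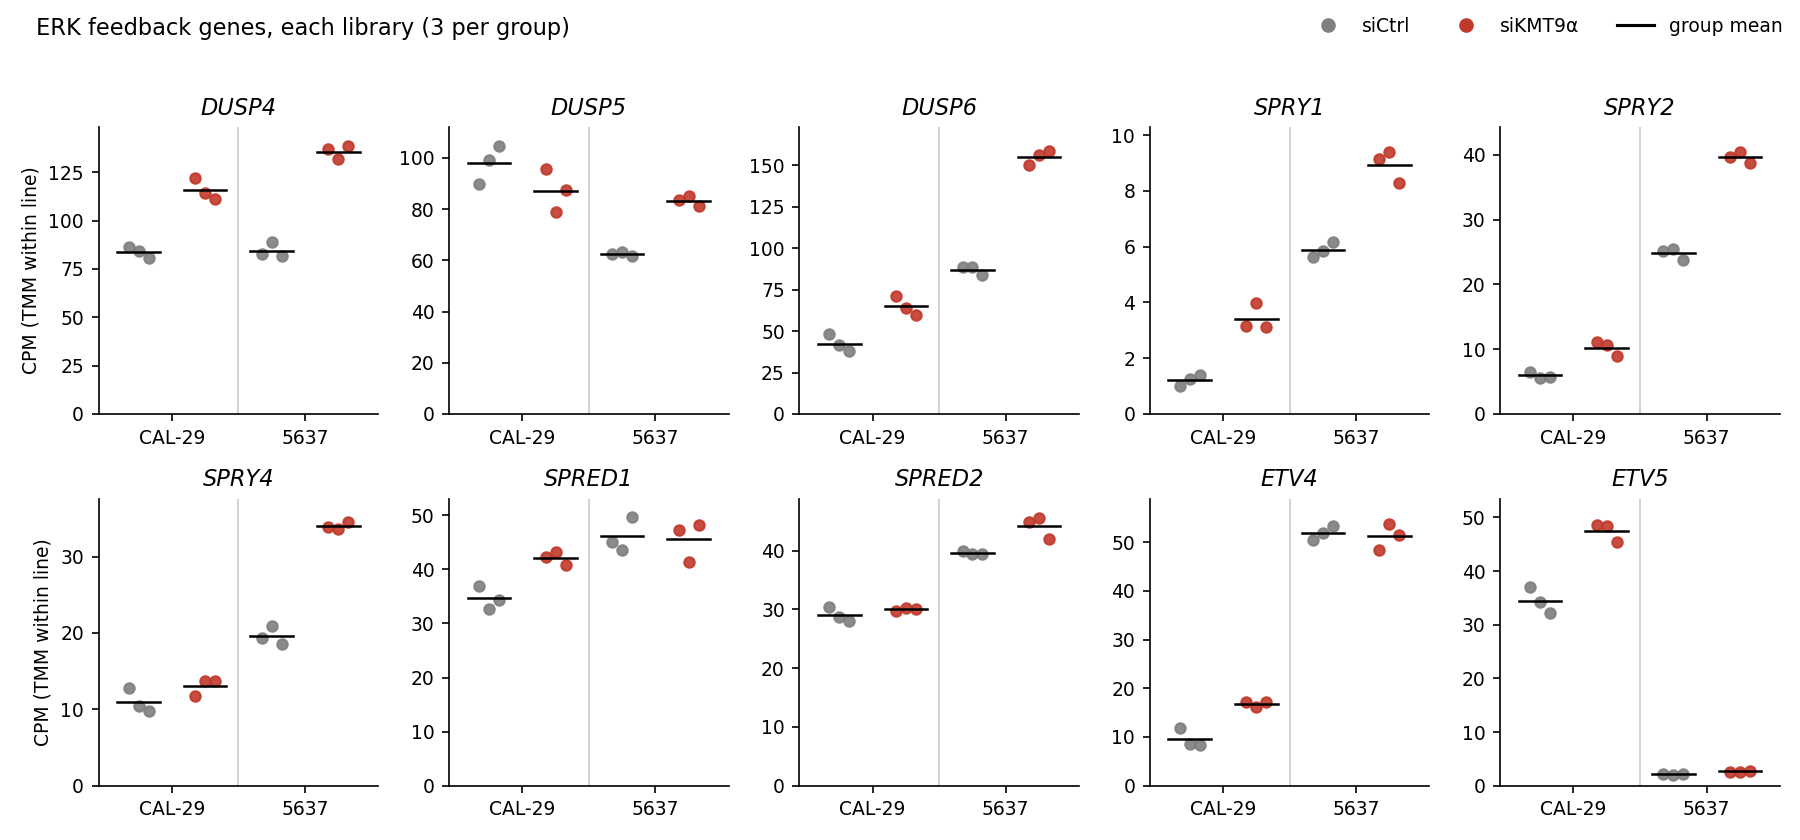
CPM of each ERK feedback gene in every library, scaled within each line, with siCtrl in grey, siKMT9α in red and group means as bars (3 libraries per group). The red points lie above the grey ones in both lines for DUSP4, DUSP6, SPRY1, SPRY2 and ETV5, and ETV5 is near the axis in 5637, at 1.93 to 2.79 CPM.

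SPRY2 encodes a membrane-associated inhibitor of receptor tyrosine kinase signalling that binds GRB2 and CBL, and it lies at chr13:80910111-80915261 on the minus strand of GRCh37. In CAL-29 it was read at 6.53, 5.55 and 5.75 CPM with siCtrl and at 11.1, 10.7 and 8.95 CPM with siKMT9α. The groups did not overlap, with a log2 fold change of 0.79 ± 0.12 (adjusted p = 6.47e-06), which passed the adjusted threshold but not the DEG threshold. It passed the DEG threshold there with DESeq2, with the likelihood ratio test, without a filter, with scaling by total counts, in the joint fit, with the replicate block and without siCtrl replicate 1. In 5637 the values were 25.2, 25.4 and 23.7 CPM with siCtrl and 39.7, 40.4 and 38.7 CPM with siKMT9α. SPRY2 was a DEG there, with a log2 fold change of 0.68 ± 0.05 (adjusted p = 3.39e-12).

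SPRY1, which encodes another Sprouty inhibitor, lies at chr4:124317950-124324915 on the plus strand and had the largest log2 fold change of the 10 genes in CAL-29, on the smallest counts. Its CAL-29 libraries held 25, 32 and 37 counts with siCtrl and 97, 130.5 and 77.5 counts with siKMT9α, or 1.02, 1.25 and 1.40 CPM against 3.15, 3.96 and 3.10 CPM. The lowest siKMT9α library was thus well above the highest siCtrl library, and the log2 fold change was 1.48 ± 0.22 (adjusted p = 3.78e-06). In 5637 SPRY1 was read at 5.64, 5.84 and 6.17 CPM with siCtrl and at 9.14, 9.38 and 8.27 CPM with siKMT9α. The rise there was 0.60 ± 0.10 on the log2 scale (adjusted p = 5.49e-06). SPRY1 missed the DEG threshold in both lines, with edgeR p-values of 1.15e-06 and 2.04e-06. It passed it in CAL-29 under the same 7 alternatives as SPRY2 and with a minimum of 10 counts in every library, and in 5637 without a filter and with the likelihood ratio test.

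SPRY4, which encodes another Sprouty inhibitor of receptor tyrosine kinase signalling, lies at chr5:141689992-141706020 on the minus strand. In CAL-29 its libraries gave 12.8, 10.5 and 9.75 CPM with siCtrl and 11.7, 13.7 and 13.7 CPM with siKMT9α. A single siKMT9α library lay within the siCtrl range, and the log2 difference of 0.25 ± 0.11 did not pass (adjusted p = 0.0507, 95% interval 0.02 to 0.47). In 5637 SPRY4 was read at 19.3, 20.9 and 18.6 CPM with siCtrl and at 33.9, 33.6 and 34.5 CPM with siKMT9α. These groups were far apart, and SPRY4 was a DEG with a log2 fold change of 0.80 ± 0.06 (adjusted p = 7.93e-13).

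SPRED1 and SPRED2 encode Sprouty-related proteins that bring neurofibromin to the membrane and thereby limit RAS. SPRED1 lies at chr15:38545037-38649450 on the plus strand and gave 36.9, 32.6 and 34.4 CPM in CAL-29 siCtrl and 42.4, 43.3 and 40.7 CPM in CAL-29 siKMT9α. The groups did not overlap, and SPRED1 rose by 0.28 ± 0.06 on the log2 scale (adjusted p = 0.00037). In 5637 the siCtrl libraries gave 45.1, 43.5 and 49.7 CPM, against 47.4, 41.4 and 48.2 CPM with siKMT9α. The ranges overlapped, with a log2 difference of -0.01 ± 0.06 (adjusted p = 0.829, 95% interval -0.13 to 0.10).

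SPRED2, at chr2:65537985-65659771 on the minus strand, had the smallest change in CAL-29. Its CAL-29 libraries lay between 28.0 and 30.4 CPM with siCtrl and between 29.7 and 30.3 CPM with siKMT9α, and the log2 difference of 0.05 ± 0.06 did not pass (adjusted p = 0.496, 95% interval -0.08 to 0.18). In 5637 SPRED2 gave 40.0, 39.4 and 39.4 CPM with siCtrl and 44.8, 45.6 and 42.0 CPM with siKMT9α. The groups did not overlap, and the rise of 0.15 ± 0.05 on the log2 scale was small (adjusted p = 0.00573) and was not called with scaling by total counts.

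The 3′ UTRs of the members were searched for ACATTCA, the 7 letters that pair with bases 2 to 8 of the siKMT9α#1 guide, because such a match is a known route by which an siRNA acts on other transcripts. The study's text gives siKMT9α#1 as the siRNA sequenced, but the count tables call it by another name, so that the searched letters belong to it rests on the text alone. In the longest annotated 3′ UTR, SPRY4, SPRED1 and SPRED2 each held 1 match and the other 7 members held none. Of 12395 genes tested in both lines with an annotated 3′ UTR, 15.4% held a match in the longest 3′ UTR and 5.99% in the shortest, where SPRY4 and SPRED1 were the members with one. The 3 windows are shown because they are the whole set of matches in the members, with the match in capitals.
SPRY4, chr5:141691768-141691792, minus strand, GRCh37: aaaaaacacACATTCAgccaaccac
SPRED1, chr15:38649410-38649434, plus strand, GRCh37: tcaaaaaatACATTCAtaataaaag
SPRED2, chr2:65539925-65539949, minus strand, GRCh37: tgatgcaaaACATTCAcccgtaata
The values of these 3 genes are given above, and the part of the matches in them was not tested.

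ETV4 encodes a PEA3 factor linked to invasion in several carcinomas, and it lies at chr17:41605212-41656988 on the minus strand with 13 exons. In CAL-29 its siCtrl libraries gave 11.9, 8.60 and 8.35 CPM, against 17.3, 16.2 and 17.1 CPM with siKMT9α. The groups did not overlap, and the log2 fold change was 0.81 ± 0.11 (adjusted p = 1.99e-06). In 5637, where ETV4 was far more abundant, the values were 50.5, 51.9 and 53.3 CPM with siCtrl and 48.5, 53.8 and 51.5 CPM with siKMT9α. The ranges overlapped, and the log2 difference of -0.02 ± 0.05 had a 95% interval of -0.11 to 0.08 (adjusted p = 0.748). The DEG call in CAL-29 ended without siCtrl replicate 2 or 3 and without any 1 of the siKMT9α libraries (p from 2.17e-06 to 1.85e-05), as it did with upper quartile scaling and with summed transcript rows.

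ETV5, its paralogue at chr3:185764103-185828107 on the minus strand, had the reverse order of levels between the lines. CAL-29 libraries gave 37.04, 34.2 and 32.1 CPM with siCtrl and 48.6, 48.5 and 45.5 CPM with siKMT9α. ETV5 was a DEG there with a log2 fold change of 0.47 ± 0.06 (adjusted p = 1.24e-06), a call that ended in the same 5 single-library refits as for ETV4 (p from 1.35e-06 to 7.72e-06) and under the same scaling and summing. In 5637 the siCtrl libraries gave 2.24, 1.93 and 2.13 CPM, against 2.62, 2.51 and 2.79 CPM with siKMT9α. These did not overlap, but at a mean of 72 counts per library the log2 difference of 0.33 ± 0.17 did not pass (adjusted p = 0.075, 95% interval -0.01 to 0.67). Annotated neighbours cover 2.31% of the exonic bases of ETV4 on the other strand and 4.02% of those of ETV5 on the same strand.

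Whether the lines responded differently was tested as an interaction over all 12 libraries. The response differed at an adjusted p below 0.05 for 6 of the 10 genes, as it did for 50.4% of the 15395 genes in that fit. ETV4 and SPRY1 responded more in CAL-29, by 0.85 ± 0.11 (adjusted p = 3.34e-07) and 0.90 ± 0.22 (adjusted p = 0.00112) on the log2 scale, and so did SPRED1, by 0.32 ± 0.09 (adjusted p = 0.00365). DUSP5 and SPRY4 responded more in 5637, with CAL-29 minus 5637 at -0.57 ± 0.08 (adjusted p = 8.56e-07) and -0.53 ± 0.12 (adjusted p = 0.000467). DUSP4 also responded more in 5637, at -0.20 ± 0.06 (adjusted p = 0.011), a call that ended with scaling by total counts, where the difference was -0.08. DUSP6 did not pass (adjusted p = 0.0537), and its 95% interval of -0.38 to -0.02 reached from a larger response in 5637 to almost none. The DUSP6 difference passed under 8 of 24 alternatives (no filter, a minimum of 10 counts in every library, DESeq2, the likelihood ratio test, the replicate block, every transcript row, and without CAL-29 siCtrl replicate 3 or siKMT9α replicate 1), with values from -0.27 to -0.08 over all of them. For SPRY2, SPRED2 and ETV5 the intervals were -0.11 to 0.38, -0.24 to 0.07 and -0.16 to 0.46, which leave room for differences of the size seen in DUSP4. By role, the 2 phosphatases that differed responded more in 5637, and the 2 Sprouty genes that differed went opposite ways.

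**Figure D3:**
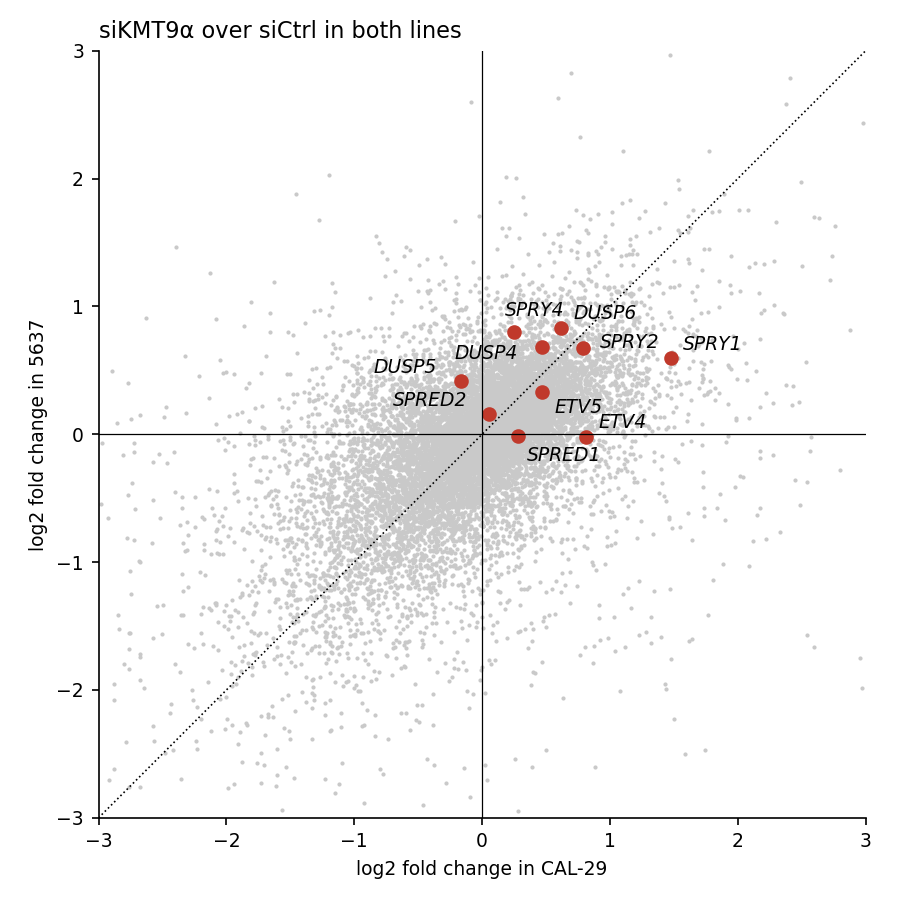
Log2 fold change, siKMT9α over siCtrl, in CAL-29 (x axis) and 5637 (y axis) for 13580 of the 13674 genes tested in both lines (grey) and for the ERK feedback genes (red), with 94 genes beyond the axes and a dotted line of equal response. SPRY1 and ETV4 lie below the dotted line, and SPRY4 and DUSP5 above it.

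The lines also differed in how much of each gene they expressed without knockdown. In siCtrl libraries 9 of the 10 differed between CAL-29 and 5637 at an adjusted p below 0.05, beside 85.4% of all genes. ETV5 was 15.6-fold higher in CAL-29 (adjusted p = 2.50e-25) and ETV4 was 5.67-fold higher in 5637 (adjusted p = 8.73e-22). SPRY1 and SPRY2 were 5.02-fold and 4.38-fold higher in 5637, DUSP6 2.15-fold and SPRY4 1.87-fold. SPRED1 and SPRED2 were 1.40-fold and 1.43-fold higher in 5637, DUSP5 was 1.5-fold higher in CAL-29, and for DUSP4 the log2 difference of -0.08 ± 0.05 did not pass (adjusted p = 0.109), though it did without CAL-29 siCtrl replicate 1 or 5637 siCtrl replicate 3.

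Levels can be compared between genes only per length, here in RPKM, which is CPM divided by transcript length in kilobases, with the length taken from an annotated transcript that may differ from the one counted. In CAL-29 siCtrl DUSP5 was highest at 38.5 ± 2.98 RPKM (SD, n = 3), followed by DUSP4 at 14.7, DUSP6 at 11.4, ETV5 at 8.21, SPRED2 at 6.25, SPRED1 at 4.64, ETV4 at 4.01, SPRY2 at 2.53, SPRY4 at 2.19 and SPRY1 at 0.457 RPKM. Libraries of SPRED1 and ETV4 overlapped in this order, as did those of SPRY2 and SPRY4. In 5637 siCtrl DUSP5 was again highest at 25.7 ± 0.308 RPKM (SD, n = 3), then DUSP6 at 24.5, ETV4 at 22.7, DUSP4 at 15.5, SPRY2 at 11.1, SPRED2 at 8.94, SPRED1 at 6.47, SPRY4 at 4.08, SPRY1 at 2.31 and ETV5 at 0.525 RPKM. No neighbours overlapped there. With siKMT9α DUSP6 reached 43.7 ± 1.24 RPKM in 5637, above DUSP5 at 34.3 ± 0.761 RPKM (both SD, n = 3).

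Counts in the related lists are read beside the shares over all genes at the same adjusted threshold, 34.3% higher and 35.2% lower in CAL-29 and 35.1% higher and 35.6% lower in 5637, and beside the DEG shares of 15% each way, and of 18% higher and 17.6% lower. Most other phosphatases of MAP kinases were lower with siKMT9α. DUSP1, DUSP2, DUSP7, DUSP8, DUSP9, DUSP10 and DUSP16 all fell in CAL-29 at an adjusted p below 0.05, 4 of the 7 as DEGs, and their median was -0.56 on the log2 scale. In 5637, where 6 were tested, 4 fell and 1 rose, all 5 as DEGs, with a median of -0.53. DUSP1, an immediate early phosphatase of stress kinases and ERK, had log2 fold changes of -0.59 ± 0.07 in CAL-29 and -0.48 ± 0.06 in 5637. DUSP16, which acts on JNK and p38, changed by -0.51 ± 0.06 and -1.39 ± 0.07, and DUSP2, a nuclear phosphatase of ERK and p38, by -1.25 ± 0.15 and -0.58 ± 0.09. DUSP7, like DUSP6 a cytoplasmic ERK phosphatase, changed by -0.43 ± 0.05 in CAL-29 and by 0.67 ± 0.04 in 5637. DUSP8 changed by -0.56 and -0.73, DUSP10 by -0.37 in CAL-29 with 0.06 in 5637 (adjusted p = 0.311), and DUSP9 by -1.54 in CAL-29 and was not tested in 5637.

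Of the relatives left out of the set, ETV1, the third PEA3 factor, rose in both lines at an adjusted p below 0.05, from a mean of 0.169 to 1.01 CPM in CAL-29 (log2 fold change 2.53 ± 0.50) and from 5.30 to 7.84 CPM in 5637 (0.57 ± 0.10). SPRED3 did not pass in CAL-29 (log2 difference -0.27 ± 0.47, adjusted p = 0.633) and was not tested in 5637, and SPRY3 was tested in neither. Among 8 other inhibitors of the pathway, 5 rose and 3 fell in CAL-29, and 5 rose and 2 fell in 5637, at an adjusted p below 0.05. PHLDA1, an ERK-induced gene that restrains receptor signalling, rose by 2.28 ± 0.06 and 1.35 ± 0.04 on the log2 scale, and CBL, the ubiquitin ligase that Sprouty proteins bind, changed by -0.50 ± 0.05 and -0.45 ± 0.04.

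The 17 other ERK-induced genes gave 9 higher and 5 lower in CAL-29 and 11 higher and 6 lower in 5637 at an adjusted p below 0.05, with medians of 0.22 and 0.35. PHLDA1 belongs to this list and to that of the other inhibitors above, and it is counted in both. FOSL1, an AP-1 subunit that accumulates under sustained ERK activity, rose by 0.99 ± 0.09 and 1.15 ± 0.03, MYC rose by 0.70 ± 0.05 and 0.56 ± 0.03, and the cytokine gene LIF changed by -0.64 ± 0.08 and -0.35 ± 0.05. In the RAS-ERK cascade itself, 4 of 13 genes rose and 4 fell in CAL-29, and 8 rose and 3 fell in 5637, so that the CAL-29 shares were near those over all genes. The adaptor gene GRB2 rose in both lines (0.49 ± 0.05 and 0.49 ± 0.03). MAPK3, which encodes the kinase ERK1, fell in both lines, with log2 fold changes of -0.95 ± 0.08 and -1.47 ± 0.06.

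Among 7 regulators of PEA3 and Sprouty proteins, 2 rose and 2 fell in CAL-29, and 4 rose and 2 fell in 5637. NEDD4, a ubiquitin ligase of SPRY2, rose by 1.08 ± 0.05 and 0.61 ± 0.04, and ATXN1, whose product is a partner of CIC, changed by -1.42 ± 0.06 and -0.72 ± 0.06. Of 14 other ETS factors, 5 of 13 tested rose and 4 fell in CAL-29, and 6 rose and 4 fell in 5637. EHF, an epithelial ETS factor, rose by 1.54 ± 0.05 and 0.70 ± 0.03, and ELK4, a partner of serum response factor, changed by -0.81 ± 0.05 and -1.25 ± 0.05.

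**Figure D4:**
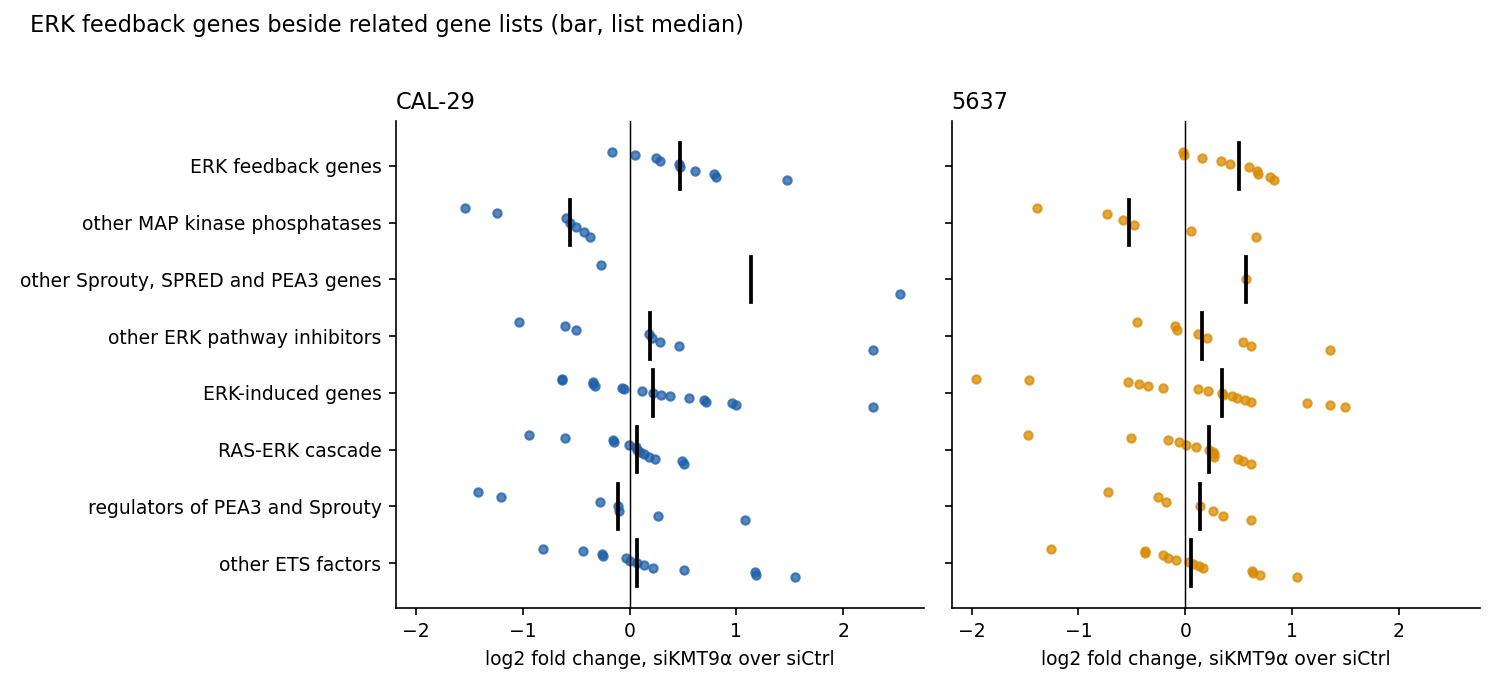
Log2 fold change, siKMT9α over siCtrl, of each tested gene (points) in the ERK feedback genes and 7 related lists, with list medians as bars, in CAL-29 (left) and 5637 (right). The bar of the ERK feedback genes stands at 0.47 and 0.51 and that of the other MAP kinase phosphatases at -0.56 and -0.53.

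DUSP6 was also used as a reference pattern across the 12 libraries, after the mean of each line was removed. The 5 other genes with the highest Pearson correlation to it, of 12461 ranked, were F3 (0.992), E2F3 (0.990), MMP15 (0.990), SLC7A2 (0.989) and SLC2A1 (0.989). Among the ERK feedback genes the closest were DUSP4 (0.986), SPRY2 (0.967), ETV5 (0.914) and SPRY4 (0.901), and the least close were DUSP5 (0.454), SPRED1 (0.478) and ETV4 (0.593). SPRED2 (0.854) and SPRY1 (0.782) lay between. These correlations are a description: the libraries share their siRNA groups, so any gene that responds in both lines correlates with DUSP6.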

How the data were processed

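Per the labels, STAR, HOMER, edgeR and the build hg19 were used by the authors to make the tables. The deposited tables, 1 for each line, hold estimated counts for 37400 transcript rows, of which 37.3% of the values were not whole; their depth is given in the report. The deposited log2 fold changes, p-values and adjusted p-values of the authors' own comparison were not used.

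Symbols were reduced to the transcript row with the most counts, rounded, filtered with filterByExpr and scaled by TMM. The siRNA effect was tested in each line with edgeR 4.0.16 (quasi-likelihood test, R 4.3.3) and Benjamini-Hochberg adjustment over all genes tested. Standard errors are the absolute log2 fold change over the square root of F. A joint fit of 12 libraries gave the interaction of line and siRNA and the siCtrl difference. With 3 against 3 libraries a permutation test of 1 value cannot go below p = 0.1, so none was used. The members and lists were chosen with earlier results of these data known. Named are all members, their relatives, N6AMT1, up to 3 genes each way per related list that were DEGs in both lines in the same direction, and the 5 genes most like DUSP6. Some genes that this rule names are not reported here. The tests were checked on simulated data: of 100 genes changed by 0.5 on the log2 scale, 75 were recovered as DEGs in CAL-29 and 82 in 5637, and of 100 changed by 1, 98 and 99. The changed genes each had a mean of at least 100 counts and were a small share of all genes, unlike in the data. SPRY1 in CAL-29 and ETV5 in 5637 lay below that mean, so these rates do not cover them. No libraries of 1 group were duplicates (chi-square over degrees of freedom 2.25 to 12.3 for pairs). Alternatives covered filters, scaling, transcript rows, thresholds, DESeq2 1.42.0, the replicate block and each library left out.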

Additional observations from a re-analysis of the deposited data

Results flagged for a closer look

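These results were picked out because the response differed between CAL-29 and 5637 in a test of the difference itself (interaction in edgeR's quasi-likelihood test, adjusted p below 0.05), which 50.4% of all genes also passed. Values are log2 fold change in CAL-29 minus that in 5637, and line, culture medium, transfection reagent and siRNA dose cannot be told apart. Among the ERK feedback genes the differences were -0.20 for DUSP4, -0.57 for DUSP5, 0.90 for SPRY1, -0.53 for SPRY4, 0.32 for SPRED1 and 0.85 for ETV4. Among the other MAP kinase phosphatases they were -0.65 for DUSP2, -1.08 for DUSP7, -0.41 for DUSP10 and 0.90 for DUSP16, and DUSP7 had significant responses of opposite sign. In the remaining related genes they were 1.98 for ETV1, 0.94 for PHLDA1, 0.16 for MYC, -0.27 for LIF, 0.54 for MAPK3, -0.68 for ATXN1, 0.46 for NEDD4, 0.46 for ELK4 and 0.86 for EHF. With 3 libraries per group, single libraries were not screened as outliers. CAL-29 siCtrl replicate 1 gave the highest pair values of chi-square over degrees of freedom (8.19 and 12.3).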

How the results depend on the processing

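All higher calls of the ERK feedback genes at an adjusted p below 0.05 held under 17 alternatives in CAL-29, and in 5637 all held but that of SPRED2 with scaling by total counts. These counts under each alternative were added after seeing the data, and they lay between 7 and 8 in CAL-29 and between 6 and 8 in 5637. The count of lower members in CAL-29 (DUSP5, 1) was 0 with scaling by total counts, with DESeq2 and with summed transcript rows, and ranged from 0 to 1 when single libraries were left out. The DEG count in CAL-29 (4) was 2 with upper quartile scaling, 1 with summed transcript rows, 8 at an adjusted p below 0.05, 0 with an added absolute log2 fold change of at least 1, and 1 to 6 without single libraries. In 5637 the DEG count (5) was 0 with that fold limit. Over all genes the DEG count became 10194 in CAL-29 and 10138 in 5637 at an adjusted p below 0.05, and 1517 and 1061 with the fold limit. Without single libraries the count over all genes was 3119 to 5469 in CAL-29 and 4288 to 4974 in 5637, beside 4402 and 5104 in the main test. The other MAP kinase phosphatases in CAL-29 (4 DEGs) gave 7 without a filter and 7 with DESeq2, and the relatives SPRY3, SPRED3 and ETV1 gave 1 DEG in place of 0 without a filter in each line. The 6 differences between lines became 1 with a test against a 1.5-fold difference and 2 at an unadjusted p below 1e-06, and those over all genes 1653 and 2421. Signs turned for values that had not passed: SPRED3 in CAL-29 without siCtrl replicate 2 or siKMT9α replicate 3 (range without single libraries -0.67 to 0.18), SPRED1 in 5637 without siCtrl replicate 3 or siKMT9α replicate 2 (-0.0535 to 0.0532), ETV4 in 5637 without siCtrl replicate 3 or siKMT9α replicate 1 (-0.0504 to 0.0213), and the difference between lines of SPRED2 with scaling by total counts (0.0287). The cause of these changes was not tested.

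Replicate numbers were not used to pair the libraries in the main test. The correlation of same-numbered deviations was 0.18, 0.04 and 0.06 in CAL-29 and 0.17, -0.01 and -0.01 in 5637. No correlation of differently numbered libraries was computed beside these, so whether the numbers pair the libraries was not settled. With the replicate block 6 of the ERK feedback genes were DEGs in CAL-29 and 5 in 5637, beside 4 and 5 without it. The DEG count over all genes with the block is not given here, so whether the rise in CAL-29 was particular to these genes cannot be told. The fewest counts were those of SPRY1 in CAL-29 and ETV5 in 5637, with means of 66.5 and 72 per library, and whether more depth would change their calls was not tested.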

Other observations

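Genes of the ERK-induced list moved both ways in 5637, and those given here were named after their values were seen. EGR1, a zinc finger factor, fell from a mean of 312 to 79.7 CPM (log2 fold change -1.96 ± 0.10, adjusted p = 5.06e-16), and the AP-1 genes FOS (-1.47 ± 0.20) and JUNB (-0.53 ± 0.04) and the early gene IER2 (-0.44 ± 0.04) fell as well. The early gene IER3 rose there (0.48 ± 0.03, adjusted p = 1.95e-13), as FOSL1 and MYC did, and fell in CAL-29 (-0.34 ± 0.05, adjusted p = 1.28e-06). In CAL-29 EGR1 was at 6.70 CPM with siCtrl and 8.76 CPM with siKMT9α (log2 fold change 0.38 ± 0.13, adjusted p = 0.0126), and FOS did not pass (0.12 ± 0.27, adjusted p = 0.715). The difference between lines was 2.36 ± 0.23 for EGR1 (adjusted p = 1.49e-09) and 1.60 ± 0.46 for FOS (adjusted p = 0.00442) on the log2 scale. The EGFR ligand genes HBEGF, AREG and EREG rose in both lines at an adjusted p below 0.05, HBEGF from a mean of 8.10 to 11.9 CPM in CAL-29 and from 112 to 315 CPM in 5637.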
